A study of Capra hircus with 2 samples.

Results

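KRT3, KRT4 and KRT9 are 3 keratin genes of the 27137 features measured in the skin of Liaoning cashmere goats. They were chosen by their measured levels in suprabasal cells of this hairy skin, so their higher levels above the basal layer are described here without a test. The skin was taken at the scapula of 2 healthy goats in anagen, the growth phase of the hair cycle, with coarse cashmere (CT-LCG) in 1 goat and fine cashmere (FT-LCG) in the other. No treatment or altered gene is named for either goat, and the labels give neither an age nor which goat had which fibre, so the fibre type of a cell comes from the deposited cell list. Each goat gave 1 library of dissociated cells, whose RNA was counted as unique molecular identifiers (UMIs). Nothing that separates the libraries therefore has a replicate check.

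Keratins form the intermediate filaments of epithelial cells, and each filament pairs a type I with a type II keratin. Basal cells of the epidermis make KRT5 and KRT14, and cells that move up into the spinous layer switch to KRT1 and KRT10. KRT4 and KRT3 are type II keratins, known respectively from the inner lining of the mouth and oesophagus and from the cornea, whereas KRT9 is a type I keratin known from the thick skin of palms and soles. The usual type I partners of KRT4 and KRT3 are KRT13 and KRT12.

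The files list KRT4 under the gene identifier 102183210, KRT3 under 102182381 and KRT9 under 102178766. In the RefSeq table of goat genes (assembly ARS1.2), KRT4 lies between KRT79 and KRT3, so that KRT4 and KRT3 are direct neighbours, and KRT9 lies between KRT19 and KRT14. Reads that fit near-identical type II keratins could have been split or lost between them, which was not tested.

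The list of kept cells holds 3443 cells of CT-LCG and 9608 of FT-LCG, with a median of 2314 and 6121.5 UMIs per cell, and 11 barcode sequences occur in both libraries. The total for KRT4 was 7005 in the CT-LCG library and 7895 in FT-LCG, for KRT9 3564 and 2675, and for KRT3 213 and 155. Levels are given as UMIs per 10000 UMIs, pooled over a group's cells within a library, and the range in brackets is an exact Poisson 95% interval. For shares of cells the range is a Clopper-Pearson 95% interval. Neither covers more than counting error.

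Cells were placed in layers by their own levels of KRT14, KRT10 and loricrin (LOR), a protein of the granular layer. A cell with LOR of at least 10 per 10000 was granular. Of the others, a cell was spinous with KRT10 of at least 50 and at least 2 times KRT14, basal with the reverse, and transitional when either keratin reached 50 without that ratio. This gave 361 basal, 314 transitional, 2218 spinous and 65 granular cells in CT-LCG, and 3652, 1706, 2342 and 879 in FT-LCG. The label "spinous" did not mean the same cells in both libraries. In CT-LCG, 35.9% of spinous cells belonged to cluster 0, a shallow cluster with a median of 1064 UMIs in that library, against 6.11% in FT-LCG, and 14 fibroblast-like, 16 endothelial-like and 2 mast-like cells of CT-LCG were also called spinous. For this reason, results on single cells are given for spinous cells with at least 5000 UMIs, of which there were 756 and 1733. Cluster 6 was unequal too, with shares of the spinous cells of 7.44% (CT-LCG) and 24.25% (FT-LCG). Its median depths, 18414.5 and 12507 UMIs, lay above this limit, so the limit does not set that difference aside. Like cluster 0, transitional cells were shallow, with medians of 1414.5 (CT-LCG) and 1218.5 (FT-LCG) UMIs against 10455 and 8047.5 in basal cells. Cluster 0 held 26.4% and 65.9% of them, and 67.7% and 70.8% of the granular cells. The levels of these 2 layers carry this limit.

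KRT4 was concentrated in the spinous layer of both goats. Its level was 0.180 (0.140 to 0.228) in basal cells, 0.578 (0.465 to 0.711) in transitional cells and 3.43 (3.35 to 3.52) in spinous cells of CT-LCG. In FT-LCG the same layers had 0.0347 (0.0290 to 0.0412), 0.157 (0.127 to 0.191) and 2.74 (2.68 to 2.80). A single cell held 48 of the 90 KRT4 UMIs of the CT-LCG transitional cells. Of all KRT4 UMIs, spinous cells held 91.0% (CT-LCG) and 95.8% (FT-LCG), while they held 66.6% and 32.3% of the UMIs of all genes. The level in spinous cells was 19.1-fold (15.1 to 24.5) that in basal cells in CT-LCG and 79.0-fold (66.4 to 94.8) in FT-LCG. The basal levels did not stand apart from those in the fibroblast-like, endothelial-like and mast-like clusters, which should not express an epidermal keratin and had 0.109 (0.0542 to 0.194) and 0.0286 (0.00928 to 0.0667).

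KRT3, the neighbour of KRT4, was sparse, with 1 UMI in 82 of the 118 CT-LCG cells and in 102 of the 119 FT-LCG cells where it was found. Its level in basal, transitional and spinous cells was 0.0157, 0.0642 and 0.102 (0.0877 to 0.117) in CT-LCG, and 0.00296, 0.0214 and 0.0442 (0.0367 to 0.0528) in FT-LCG. The non-epithelial clusters of CT-LCG had 2 KRT3 UMIs, a level of 0.0198 (0.00239 to 0.0714), and those of FT-LCG had 0, which by a floor of 3 counts allows a level of up to 0.0171. The spinous level therefore lay above this background in both libraries and the basal level did not. In FT-LCG the spinous level was not above that of the barcodes outside the list of kept cells, 0.0336 (0.0161 to 0.0617). When every cell was thinned to 1000 UMIs, 0.720% (0.394 to 1.21) of CT-LCG spinous cells had a KRT3 UMI against 0.490% (0.0124 to 2.70) of the non-epithelial cells, so the share of cells could not separate KRT3 from background at this depth.

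KRT9 was less restricted to the spinous layer. Its level was 0.457 (0.391 to 0.529) in basal, 1.41 (1.23 to 1.61) in transitional and 1.66 (1.60 to 1.72) in spinous cells of CT-LCG. In FT-LCG it was 0.112 (0.102 to 0.124) in basal, 0.226 (0.190 to 0.267) in transitional and 0.692 (0.661 to 0.723) in spinous cells. The spinous level was 3.63-fold (3.12 to 4.26) the basal level in CT-LCG and 6.17-fold (5.54 to 6.87) in FT-LCG, smaller ratios than those of KRT4. In contrast to KRT4 and KRT3, the pooled basal KRT9 level lay above that of the non-epithelial clusters. The level there was 0.158 (0.0903 to 0.257) in CT-LCG and 0.0229 (0.00623 to 0.0585) in FT-LCG. The share of cells did not separate basal KRT9 from background, with cells thinned as for KRT3. In CT-LCG, 2.80% (1.35 to 5.09) of basal cells kept a KRT9 UMI against 2.94% (1.09 to 6.29) of non-epithelial cells. In FT-LCG it was 1.12% (0.802 to 1.52) against 0 of 265 cells, with an upper limit of 1.38%. Basal KRT9 was below the 0.645 (0.557 to 0.743) of the barcodes outside the list of kept cells. The spinous level of FT-LCG lay within that interval. At least 3 KRT9 UMIs were found in 17 basal cells of CT-LCG and in 25 of FT-LCG, with up to 13 and 17 in a cell.

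**Figure D1:**
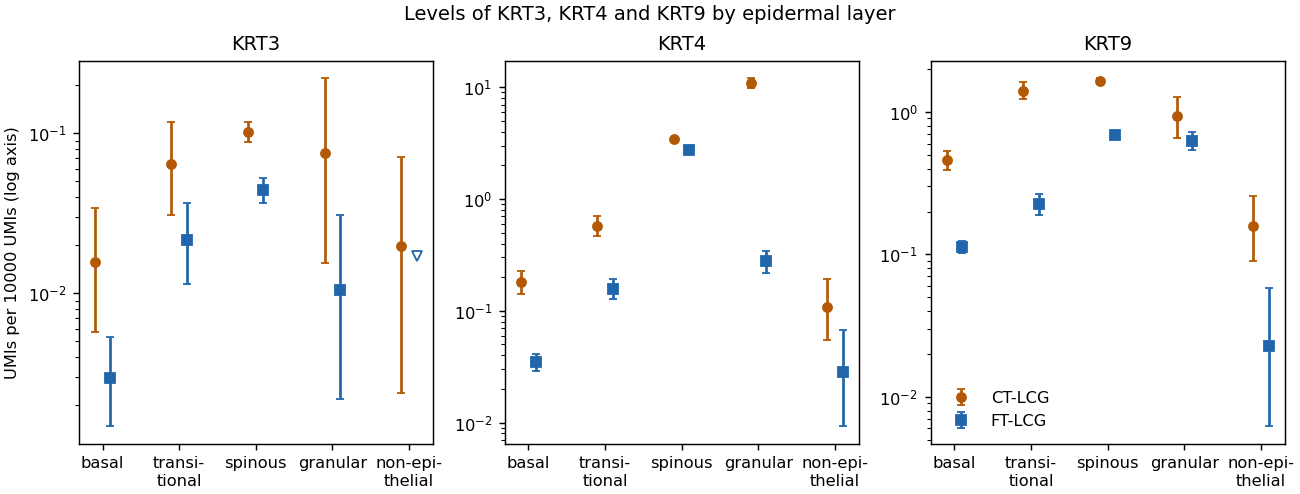
Level of each gene (UMIs per 10000 UMIs, log axis) by layer and in the non-epithelial clusters, for CT-LCG (circles) and FT-LCG (squares); bars are exact Poisson 95% intervals, and the open triangle is the level that a count of 0 allows. In CT-LCG, KRT4 was at 0.180 in basal and 3.43 in spinous cells, and KRT9 at 0.457 and 1.66.

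At unequal depths, shares of cells with a UMI are harder to compare than levels. Unthinned, 19.8% of CT-LCG and 10.7% of FT-LCG spinous cells had a KRT4 UMI, and 23.5% and 18.5% had a KRT9 UMI, at median depths of 1668 and 10803 UMIs. The non-epithelial cells, at 4182 and 3158 UMIs, showed 4.69% and 1.35% for KRT4 and 6.57% and 1.01% for KRT9. After thinning to 1000 UMIs, a depth that 1944 of 2218 CT-LCG and 2232 of 2342 FT-LCG spinous cells reached, 12.4% (11.01 to 14) and 6.23% (5.26 to 7.31) of spinous cells kept a KRT4 UMI and 9.93% (8.63 to 11.3) and 5.78% (4.85 to 6.83) a KRT9 UMI. The thinned background was 1.96% and 0.755% for KRT4 and 2.94% for KRT9 in CT-LCG, and 0 of 265 cells for KRT9 in FT-LCG, which by the same floor allows a share of up to 1.13%. Of the 4248 barcodes outside the list of kept cells, at a median of 695 UMIs, 414 had a KRT4 UMI and 166 a KRT9 UMI. In the shallow cluster 0, 18.0% (CT-LCG) and 5.92% (FT-LCG) of thinned cells kept a KRT4 UMI. The part of free RNA in the spinous shares was not tested.

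In the granular layer the libraries went opposite ways for KRT4. The level was 10.9 (9.92 to 12) in CT-LCG, 3.18-fold the spinous level, and 0.278 (0.220 to 0.346) in FT-LCG, 0.101 of the spinous level. In CT-LCG, 2 of the 65 granular cells held 426 of the 435 KRT4 UMIs, with 246 and 11937 LOR UMIs. Without these 2 cells the CT-LCG level was 0.407 (0.186 to 0.772), so the excess in CT-LCG rested on them. KRT9 had 0.929 (0.654 to 1.28) in granular cells of CT-LCG and 0.625 (0.537 to 0.724) in those of FT-LCG, the latter with an interval that overlapped the spinous one. In CT-LCG, 1 granular cell held 30 of the 37 KRT9 UMIs. KRT3 had 3 UMIs in the granular cells of each library, too few to place it.

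The granular label itself was loose, because 1 LOR UMI reached the limit in a cell of up to 1000 UMIs. A single LOR UMI was all that 41 granular cells of CT-LCG and 328 of FT-LCG had. With at least 3 LOR UMIs required, 15 and 223 cells remained. Their KRT4 level was 12.2 (11.1 to 13.4) and 0.180 (0.128 to 0.246), against 0.917 (0.628 to 1.30) and 0.739 (0.629 to 0.863) for KRT9. In CT-LCG the same 2 cells as before held all 426 KRT4 UMIs, and 1 cell held 30 of the 32 KRT9 UMIs. The CT-LCG levels of these 15 cells therefore rest on 1 or 2 cells. In FT-LCG, the pooled KRT9 level was thus similar in spinous and granular cells while KRT4 was 0.0658 of its spinous level in the granular cells. That KRT9 level also rested on few cells. Of the 223 cells, 29 had a KRT9 UMI and 9 had at least 3, with up to 27 of the 160 UMIs in 1 cell. After thinning to 1000 UMIs, 2.73% (1.42 to 4.72) of FT-LCG granular cells by the first rule kept a KRT9 UMI, against 5.78% (4.85 to 6.83) of spinous cells.

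Along the ratio of KRT10 to KRT14, the genes differed in where they appeared. Basal, transitional and spinous cells with at least 5000 UMIs, with granular cells defined by at least 3 LOR UMIs and left out, were sorted into 7 bins of log2((KRT10 + 1)/(KRT14 + 1)), from mostly KRT14 to mostly KRT10. In FT-LCG, KRT9 was 0.115 (0.102 to 0.130) and 0.108 (0.0865 to 0.134) in the lowest 2 bins and higher in each bin after them, up to 0.860 (0.808 to 0.915) in the highest. In CT-LCG it increased from 0.404 (0.306 to 0.522) to 2.39 (2.24 to 2.55) in the sixth bin and was lower, 1.49 (1.42 to 1.57), in the seventh.

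KRT4 was found mainly at the far end of the same series. The first bin had 0.0209 (CT-LCG) and 0.0207 (FT-LCG). The seventh had 5.05 (4.92 to 5.19) and 4.05 (3.94 to 4.17). In FT-LCG it was higher in each bin than in the one before, but not every step stood apart. The fourth bin had 0.549 (0.481 to 0.624) and the fifth 0.556 (0.488 to 0.632). Single cells held 70 and 53 of the 236 UMIs of each. The first 2 bins also overlapped. In CT-LCG KRT4 did not increase in each bin, with 0.858 in the third bin, where 1 cell held 48 of the 87 UMIs, and 0.0619 in the fourth. KRT3 was at 0 in the first 2 bins of CT-LCG, with 92 and 125 cells, and reached 0.114 in each of the last 2 bins, and in FT-LCG it was highest in the seventh bin, at 0.0659 (0.0521 to 0.0824).

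**Figure D2:**
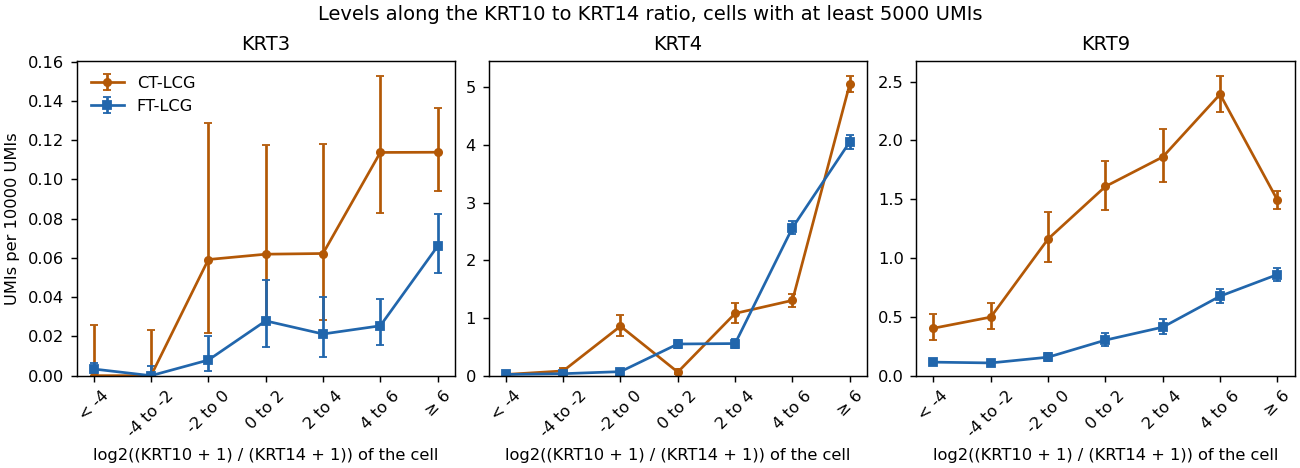
Level of each gene (UMIs per 10000 UMIs, linear axis from 0) in bins of log2((KRT10 + 1)/(KRT14 + 1)) of the cell, for CT-LCG (circles) and FT-LCG (squares), with exact Poisson 95% intervals. KRT4 reached 5.05 and 4.05 in the last bin, and KRT9 in CT-LCG peaked at 2.39 one bin earlier.

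KRT4 RNA was packed into few cells. In CT-LCG 15 cells, 0.436% of all kept cells, held 50% of the KRT4 UMIs, and 48 cells held 80%. In FT-LCG 26 cells (0.271%) held 50% and 70 cells held 80%. The highest cell had 335 KRT4 UMIs in the coarse and 327 in the fine library. KRT9 was spread more widely, with 50% of its UMIs in 84 CT-LCG and 106 FT-LCG cells and at most 61 and 30 UMIs in a cell. The common spinous keratins KRT1 and KRT10 needed 263 and 209 cells of CT-LCG for 50% of their UMIs. The less abundant KRT2 needed 54 cells of CT-LCG and 120 of FT-LCG, so the concentration of KRT9 was not particular to it.

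Among spinous cells with at least 5000 UMIs, a cell was called KRT4-high from 10 UMIs per 10000 and KRT9-high from 3, limits that were set after the values had been seen. KRT4-high cells were 52 of 756 (6.88%, 5.18 to 8.92) in CT-LCG and 91 of 1733 (5.25%, 4.25 to 6.41) in FT-LCG, and they held 88.9% and 92.3% of the KRT4 UMIs of these spinous cells. KRT4 ranged in them from 10.1 to 113 with a median of 21.6 in CT-LCG, and from 11.1 to 142 with a median of 33.7 in FT-LCG. KRT4 was at 0 in 75.1% and 88.1% of the spinous cells. The cells nearest the limit had 10.1 inside and 9.96 outside it in CT-LCG, and 11.1 and 9.58 in FT-LCG.

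KRT9-high cells were 158 of 756 (20.9%, 18.1 to 24.0) in CT-LCG and 137 of 1733 (7.91%, 6.68 to 9.28) in FT-LCG. They held 80.3% and 72.0% of the KRT9 UMIs of these cells. Their KRT9 level had a median of 6.39 (CT-LCG) and 5.52 (FT-LCG) and reached 25.2 and 18.1. The values next to the limit were 3.01 inside and 2.98 outside in CT-LCG, and 3.02 and 2.99 in FT-LCG.

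Few KRT4-high cells were also KRT9-high. In CT-LCG, 1 of the 52 KRT4-high cells was also KRT9-high (1.92%, 0.0487 to 10.3), against 157 of the 704 other spinous cells (22.3%, 19.3 to 25.6). In FT-LCG, 2 of the 91 KRT4-high cells were KRT9-high (2.20%, 0.267 to 7.72), against 135 of 1642 (8.22%, 6.94 to 9.66), and these intervals overlapped. The summed KRT9 level was 0.132 in KRT4-high cells and 2.06 in cells with KRT4 under 1 per 10000 in CT-LCG, and 0.391 and 0.734 in FT-LCG. With each cell thinned to 5000 UMIs the overlap was 0% and 2.11% of the KRT4-high cells. With both limits halved it was 2.90% of KRT4-high cells in CT-LCG, where 30.95% of all these spinous cells were KRT9-high, but 10.6% against 12.5% in FT-LCG, so the gap in FT-LCG depended on the limits. These limits and counts are a description, since the cells of a library are not replicates.

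**Figure D3:**
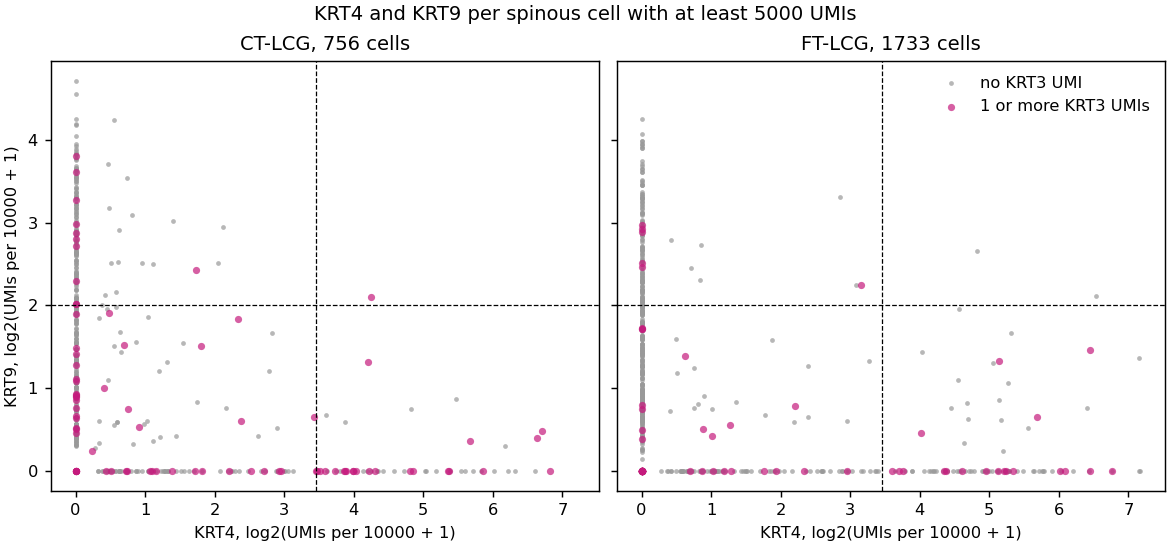
Each point is a spinous cell with at least 5000 UMIs, with KRT4 on the horizontal and KRT9 on the vertical axis, both as log2(UMIs per 10000 + 1); dashed lines mark the limits of 10 for KRT4 and 3 for KRT9, and the larger pink points are cells with a KRT3 UMI. The upper right corner holds 1 of 756 cells in CT-LCG and 2 of 1733 in FT-LCG.

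KRT3 was found more often beside KRT4 than beside KRT9. A KRT3 UMI was present in 83 of the 756 CT-LCG cells and in 80 of the 1733 FT-LCG cells. In CT-LCG, 27.7% (18.4 to 38.6) of the cells with a KRT3 UMI were KRT4-high, against 4.31% (2.91 to 6.13) of those without. In FT-LCG the shares were 23.8% (14.95 to 34.6) and 4.36% (3.42 to 5.45). For KRT9-high cells the shares were 14.5% (7.7 to 23.9) with and 21.7% (18.6 to 25) without a KRT3 UMI in CT-LCG, and 7.5% (2.80 to 15.6) and 7.93% (6.67 to 9.33) in FT-LCG, so the intervals overlapped.

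The KRT3 level was 0.429 in KRT4-high cells and 0.0534 in cells with KRT4 under 1 per 10000 in CT-LCG, and 0.176 and 0.0288 in FT-LCG. KRT4-high cells held 65 of the KRT3 UMIs of CT-LCG spinous cells, 37.6%, and 31 of those of FT-LCG, 27.2%. Of the 65, single cells held 14, 10 and 7, and the cell with 14 had the lowest KRT4 level inside the limit, 10.1. Cells with KRT4 under 1 per 10000 held 71 and 67. Cells with a KRT3 UMI were somewhat deeper, with a median of 24938 UMIs against 20103 in CT-LCG and 16068 against 13059 in FT-LCG, and the part of this depth and of the shared position on the chromosome was not tested.

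To see which other genes differed in KRT4-high cells, for each library the 10 genes most above and the 10 most below were taken, among 7793 genes with at least 100 UMIs in these cells of each library, by log2 ratio with 0.1 per 10000 added, against cells with KRT4 under 1 per 10000. Of the 10 genes highest in CT-LCG, 9 were at least 2-fold higher in FT-LCG, where 1.68% of all genes were. Of the 10 highest in FT-LCG, 9 were at least 2-fold higher in CT-LCG, where 0.924% were. The lists shared 6 genes, which were S100A7A, SPINK7, KLK12, SELENBP1 and 2 named by locus alone.

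S100A7A, a calcium-binding protein of the psoriasin family, had a level of 585 in KRT4-high and 62.3 in KRT4-low cells of CT-LCG, and 428 and 15.9 in FT-LCG. SPINK7, a serine protease inhibitor, had 315 and 53.7 in CT-LCG and 257 and 15.9 in FT-LCG. KLK12, a serine protease of the kallikrein family, had 17.7 and 2.79 in CT-LCG and 18.9 and 1.09 in FT-LCG. SELENBP1, a selenium-binding protein, had 13.9 and 2.58 in CT-LCG and 11.9 and 0.802 in FT-LCG. In all 4 genes the ratio was larger in FT-LCG, by 26.8-fold against 9.38-fold for S100A7A.

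Some genes were tied to KRT4 in 1 goat. AQP5, a water channel of glands, had 4.18 in KRT4-high and 0.0921 in KRT4-low cells of FT-LCG, but 0.396 and 0.444 in CT-LCG. IVL, the cornified envelope protein involucrin, had 1.24 and 0.114 in CT-LCG but 0.295 and 0.830 in FT-LCG. ALDH1A1, an enzyme that makes retinoic acid, was higher in both, with 4.21 and 1.36 in CT-LCG and 7.35 and 0.626 in FT-LCG.

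On the low side of KRT4-high cells, 9 of the 10 genes chosen in CT-LCG were at least 2-fold lower in FT-LCG (2.27% of all genes), and 9 of the 10 chosen in FT-LCG in CT-LCG (2.72%). CST6, a protease inhibitor that acts in cornification, had 1.196 in KRT4-high and 33.1 in KRT4-low cells of CT-LCG, and 8.34 and 122 in FT-LCG. KRT79, a keratin of the follicle opening, had 0.0330 and 1.58 in CT-LCG and 0.119 and 4.54 in FT-LCG. NDUFA4L2 was the third gene in both lists, with 0.0330 and 0.763 in CT-LCG and 0.193 and 3.41 in FT-LCG. CST6 was among the leading genes of cluster 6 and KRT79 of cluster 1, and both clusters held spinous cells. The part of this in the ratios was not tested.

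KRT9-high cells were set against spinous cells with no KRT9 UMI in the same way, and the ratios on the high side were smaller. Of the 10 highest genes of CT-LCG, 5 were at least 2-fold higher in FT-LCG (0.257% of all genes), and of those of FT-LCG, 6 in CT-LCG (0.719%). PLIN2, which coats lipid droplets, had 7.39 in KRT9-high and 2.51 in KRT9-free cells of CT-LCG and 10.8 and 4.05 in FT-LCG. FRAT2, a regulator of the Wnt pathway, had 2.98 and 1.01 in CT-LCG and 3.06 and 0.971 in FT-LCG. F3, the tissue factor of blood clotting, had 9.52 and 4.13 in CT-LCG and 27.6 and 10.95 in FT-LCG. DNAJB4, a heat shock protein, had 9.72 and 2.71 in CT-LCG and 4.02 and 1.90 in FT-LCG, and the part of a stress response in KRT9 was not tested.

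S100A7A, SPINK7 and KLK12, high in KRT4-high cells, were among the 10 lowest genes of KRT9-high cells in CT-LCG and not in FT-LCG. The KRT9-free cells they were compared with held 73.4% of the KRT4 UMIs of these spinous cells in CT-LCG, with 50.4% of the cells and 49.2% of all UMIs. In FT-LCG the KRT9-free cells held 72.9% of the KRT4 UMIs, with 77.3% of the cells and 74.0% of all UMIs, so there they were not richer in KRT4. Of the 10 lowest genes, 8 of those chosen in CT-LCG were at least 2-fold lower in FT-LCG (1.64% of all genes), and 9 of those chosen in FT-LCG in CT-LCG (1.48%). S100A7A had 14.8 in KRT9-high and 203 in KRT9-free cells of CT-LCG, and 24.3 and 64.4 in FT-LCG. KLK12 had 0.310 and 7.84 in CT-LCG and 1.49 and 3.35 in FT-LCG. Both sets were low in KRT79, KRT6A and CST6. The cells they were compared with mixed several clusters. CST6 was among the leading genes of cluster 6, with 7.44% (CT-LCG) and 24.3% (FT-LCG) of spinous cells of any depth. KRT79 and KRT6A were among those of cluster 1, with 12.1% and 9.27%. The part of this mix in the low levels was not tested. KRT79 had 0.0669 in KRT9-high and 2.64 in KRT9-free cells of CT-LCG, and 0.0667 and 5.10 in FT-LCG.

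**Figure D4:**
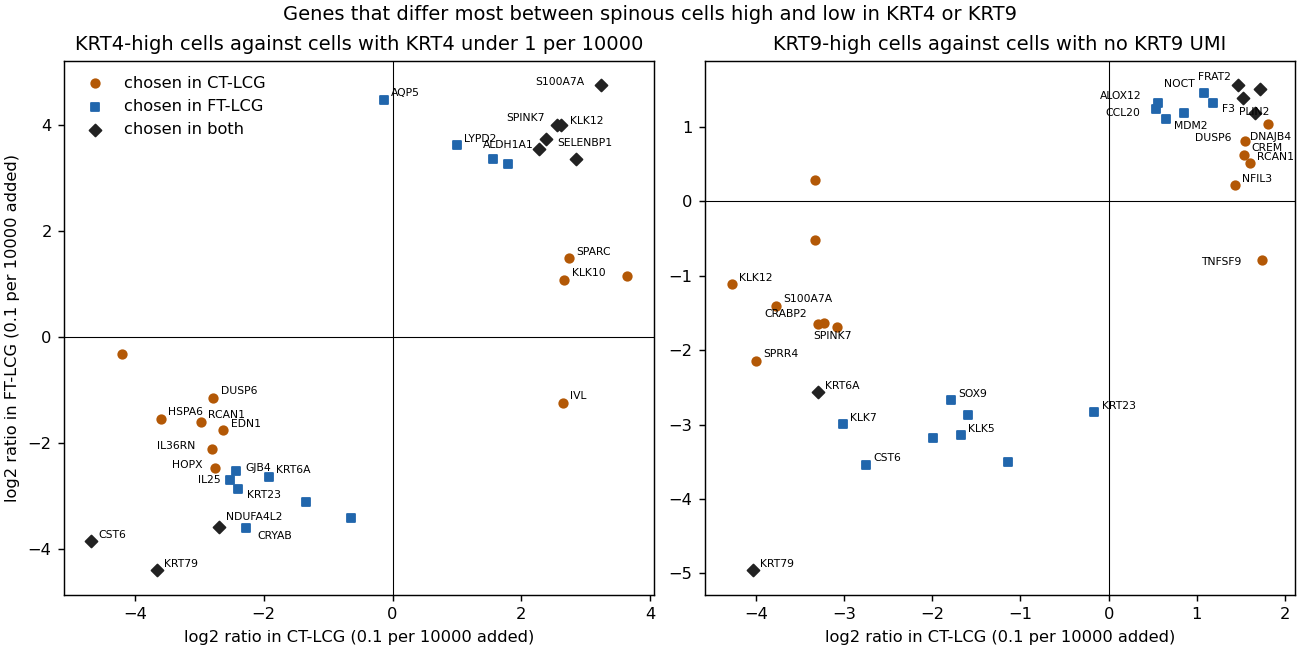
Log2 ratios in CT-LCG (horizontal) and FT-LCG (vertical) of the genes most above or below in KRT4-high cells (left) and KRT9-high cells (right), with 0.1 per 10000 added to each level; circles were chosen in CT-LCG, squares in FT-LCG and diamonds in both, and genes named by locus alone are not labelled. Most points lie in the quadrants of equal sign, and IVL, with 2.65 and -1.24 for KRT4, is among those that do not.

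The common spinous keratins differed less. KRT10, in log2 ratio of KRT4-high to KRT4-low cells, was 0.21 in CT-LCG and 0.48 in FT-LCG. KRT1 was -0.02 and 0.31. For KRT9-high cells KRT10 was 0.03 and 0.14 and KRT1 was 0.11 and 0.15. The 6 spinous markers had a summed level of 982 in KRT4-high and 847 in KRT4-low cells of CT-LCG, and 1135 and 853 in FT-LCG. The summed levels of the fibroblast, dermal papilla, smooth muscle, endothelial, macrophage, mast cell, T cell and melanocyte lists were between 0 and 0.0661 in KRT4-high cells and between 0 and 0.131 in KRT9-high cells, for all lists in both libraries. The 5 granular markers found had 4.16 and 37.9 in CT-LCG and 11.1 and 130 in FT-LCG, and CST6 made up 33.1 of the 37.9 and 122 of the 130. The sweat gland list of 5 genes, which includes AQP5, had 1.39 and 3.30 in CT-LCG and 6.76 and 7.14 in FT-LCG, with 1 gene at least 2-fold higher in FT-LCG.

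Across the 14 clusters of all kept cells, KRT4 was highest in cluster 4, a spinous-like cluster led by S100A7A and SPINK7. Its level there was 6.12 (CT-LCG) and 4.51 (FT-LCG), and the intervals stood clear of the next cluster in both libraries. By the mean of both libraries, the following clusters were cluster 0 with 2.12 and 0.556, cluster 1 with 1.94 and 0.300, cluster 6, which was led by LOR, with 1.495 and 0.507, and cluster 5 with 1.35 and 0.465. The order was not the same in each library, and neighbours in it could not be told apart in at least 1 library. In FT-LCG alone cluster 9 came second with 0.908, where 35 of its 43 KRT4 UMIs came from 1 cell, and cluster 3 with 0.330 lay above cluster 1. Single cells weighed on other clusters too. In cluster 3 of FT-LCG, 1 cell held 141 of the 397 KRT4 UMIs. In cluster 6, 1 cell held 219 of 583 in CT-LCG and 1 cell 220 of 666 in FT-LCG, and in cluster 5 of CT-LCG 1 cell held 54 of 122. The 3 clusters highest by the mean, 4, 0 and 1, held 84.1% of the KRT4 UMIs and 48.0% of the cells in CT-LCG, and 80.9% and 40.6% in FT-LCG. Cluster 4 alone held 5438 of the 7005 KRT4 UMIs of CT-LCG and 6049 of the 7895 of FT-LCG. Cluster 0 did not stand above the barcodes outside the list of kept cells. These had 1.74 (1.60 to 1.90), and cluster 0 had 2.12 (1.85 to 2.42) in CT-LCG and 0.556 in FT-LCG. Of the KRT4-high cells, 45 of 52 in CT-LCG and 73 of 91 in FT-LCG lay in cluster 4, which held 44.2% and 42.9% of the deep spinous cells. The same cluster held 69 of the 158 KRT9-high cells of CT-LCG (43.7%, 35.8 to 51.8). In FT-LCG it held 80 of 137 (58.4%, 49.7 to 66.8), so it was not particular to KRT4.

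KRT9 was distributed over 3 clusters named spinous-like by their markers. By layer, however, 587 of the 1098 FT-LCG cells of cluster 3 and 526 of the 806 of cluster 5 were basal. Cluster 5, led by KRT6A and CCL27, had 2.84 in CT-LCG and 0.405 in FT-LCG, cluster 3, led by HSPA6 and HBEGF, had 2.42 and 0.412, and cluster 4 had 1.68 and 0.899. The order of these 3 differed between the libraries, with cluster 4 highest in FT-LCG and lowest of the 3 in CT-LCG. Together they held 75.9% of the KRT9 UMIs and 28.5% of the cells in CT-LCG, and 71.5% and 28.7% in FT-LCG. KRT3 was highest in cluster 4, at 0.133 and 0.0634. In CT-LCG cluster 3 came next at 0.121, and in FT-LCG cluster 0 at 0.0316, with cluster 3 at 0.0183, and neighbours in the order had overlapping intervals in at least 1 library. All 3 genes were scarce in cluster 8, led by CXCL14 and KRT19, where KRT4 had 0.0578 and 0.0273 and KRT9 0.101 and 0.0364. The clusters were built from these same cells, so these levels are a description.

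**Figure D5:**
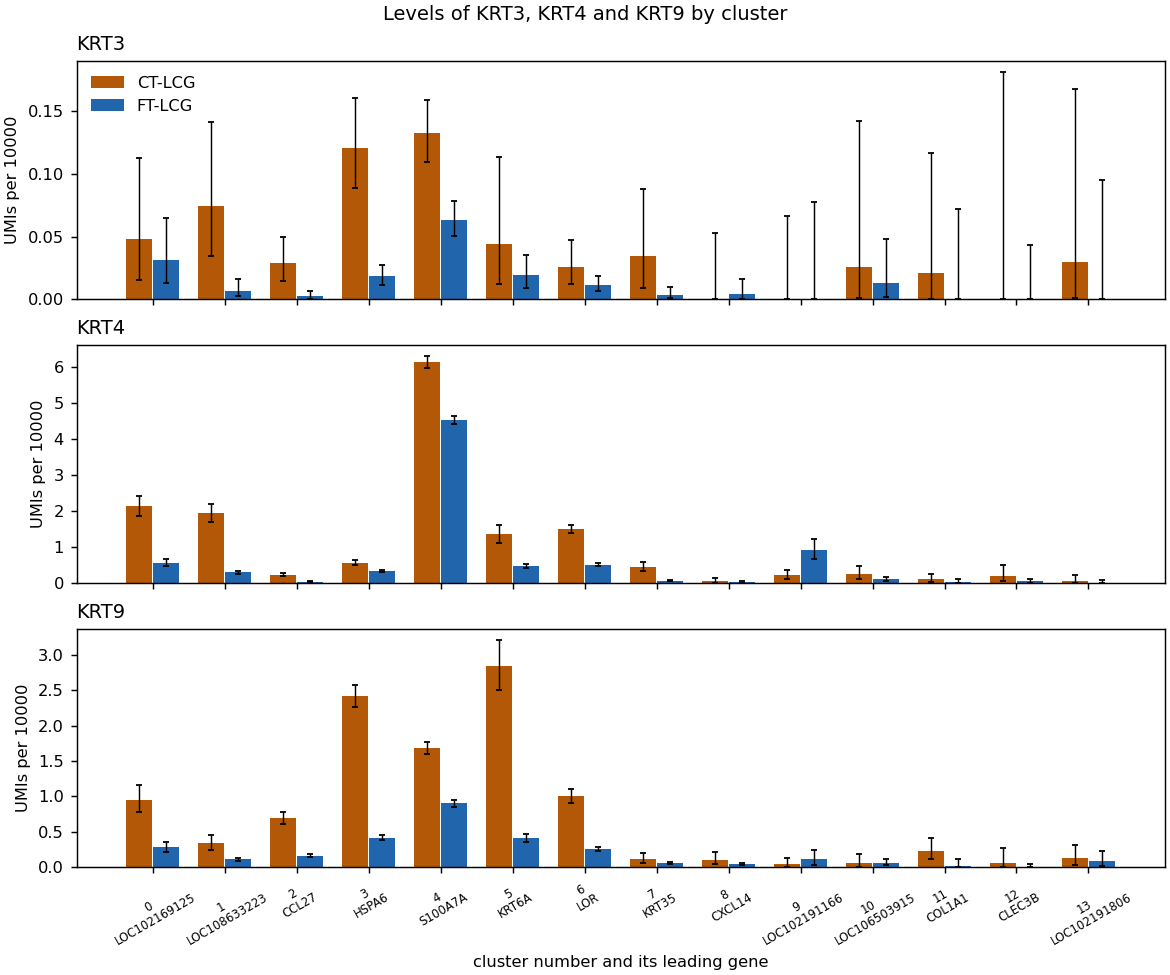
Level of each gene (UMIs per 10000 UMIs) in the 14 clusters, numbered and named by their leading gene, as bars for CT-LCG and FT-LCG with exact Poisson 95% intervals. KRT4 stands out in cluster 4 with 6.12 and 4.51, and KRT9 in clusters 3, 4 and 5.

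Over the 28 profiles of 14 clusters in 2 libraries, the genes most like each keratin were found by Pearson's r of log2(UMIs per 10000 + 1). The profiles share libraries and depth, so r is a description. EPHX2, an epoxide hydrolase, was the most like KRT4 (r = 0.921), followed by FBP2, a gluconeogenic enzyme (0.916), DRC1 (0.871), PGLYRP3, an antibacterial peptidoglycan receptor (0.859), and LIPM, an epidermal lipase (0.856). FBP2, DRC1 and PGLYRP3 had low levels, at most 0.320, 0.244 and 0.240 in any profile. LIPM had 0.0757 in basal and 1.30 in spinous cells of CT-LCG, and 0.0447 and 1.02 in FT-LCG. For KRT9 the highest were LOC102169818 (0.951), LOC108637966 (0.942), LOC102175704 (0.924), MPC2, a mitochondrial pyruvate carrier (0.917), and LOC102171670 (0.901). Of these, LOC108637966 and LOC102171670 were sparse, with levels of at most 0.0983 and 0.0231 in any profile. LOC102175704 had 0.730 in basal and 0.703 in spinous cells of CT-LCG, and 0.227 and 0.410 in FT-LCG. MPC2 had 1.07 and 3.01 in basal and spinous cells of CT-LCG and 0.654 and 1.54 in FT-LCG.

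The genes most like KRT3 were RBP2, a retinol-binding protein (0.858), CCNE1, a cyclin (0.808), MDM2, the ubiquitin ligase of p53 (0.803), LOC108637966 (0.794) and MPC2 (0.787). KRT3 itself reached at most 0.133 in any profile and LOC108637966 at most 0.0983, so each r with KRT3 rests on few UMIs. The lists of KRT3 and KRT9 shared 2 of their 5 genes, and the list of KRT4 shared 0 with either. Among the 3 keratins themselves, r was 0.770 for KRT3 and KRT9, 0.738 for KRT3 and KRT4 and 0.653 for KRT4 and KRT9.

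Of 19 other keratins listed for comparison, 13 had a feature of that symbol and 10 had at least 100 UMIs in each library. In spinous cells, 7 of the 10 were at least 2-fold higher than in basal cells in both libraries and 3, KRT5, KRT14 and KRT6A, at least 2-fold lower, against 2.68% and 2.00% of the 9947 genes with as many UMIs. On the same scale, with 0.1 per 10000 added, KRT4 and KRT9 were past 2-fold and KRT3 was not, from which nothing is read because the genes were chosen on this contrast. KRT10 had 27.5 in basal and 326 in spinous cells of CT-LCG and 18.3 and 407 in FT-LCG, and KRT1 had 34.01 and 223 in CT-LCG and 13.1 and 191 in FT-LCG, where KRT10 and KRT14 themselves set the layers. KRT2, a keratin of the upper spinous layer, had 0.261 and 7.34 in CT-LCG and 0.170 and 5.02 in FT-LCG. In KRT4-high cells KRT2 was 0.19 and 1.25 in log2 ratio, and KRT77 was -1.45 and -1.41.

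KRT12, the usual partner of KRT3, had 4 UMIs in each library. KRT13, KRT15, KRT16, KRT17, KRT75 and KRT76 were not analysed here.

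Among 26 genes of epidermal differentiation, 24 had a feature and 22 had at least 100 UMIs in each library, of which 13 were at least 2-fold higher in spinous than in basal cells in both libraries and 0 lower, with a median log2 ratio of 1.28 against -0.07 over all genes tested. KLF4, a transcription factor of the skin barrier, had 11.4 in basal and 25.3 in spinous cells of CT-LCG and 7.69 and 18.1 in FT-LCG. GRHL3, another, had 0.0313 and 0.232 in CT-LCG and 0.0549 and 0.310 in FT-LCG. NOTCH1, a receptor that drives the exit from the basal layer, had 0.303 and 0.279 in CT-LCG and 0.483 and 0.433 in FT-LCG.

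Between KRT4-high and KRT4-low cells, MAF, a transcription factor of late differentiation, had a log2 ratio of -1.06 (CT-LCG) and -0.91 (FT-LCG), and for KRT9-high cells it had 0.94 and 0.49. KLF4 had -0.76 and -0.61 for KRT4 and 0.12 and 0.33 for KRT9. The proteases KLK7 and KLK5, which cut the junctions of shed cells, were below in both sets, with -1.22 and -1.73 for KLK7 in KRT4-high cells and -3.01 and -2.997 in KRT9-high cells. KRTDAP, a keratinocyte differentiation protein, was 0.28 and 0.43 for KRT4 and -0.63 and -0.65 for KRT9, and DMKN was 0.53 and 0.39 for KRT4 and -0.98 and -1.004 for KRT9. DKK1, an inhibitor of Wnt signalling that raises KRT9 in sole skin, was found with 30 CT-LCG and 364 FT-LCG UMIs. The CT-LCG count was under the limit of 100 UMIs. In FT-LCG, DKK1 had 0.0791 in basal and 0.00399 in spinous cells. At this depth DKK1 could not be compared between KRT9-high and KRT9-free cells.

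All 3 genes had a higher level in suprabasal (spinous and granular) cells of CT-LCG than of FT-LCG. KRT9 had 1.64 and 0.686, a 2.397-fold (2.27 to 2.54) difference, KRT3 had 0.101 and 0.0411, 2.46-fold (1.96 to 3.11), and KRT4 had 3.59 and 2.51, 1.43-fold (1.38 to 1.48). With 0.1 per 10000 added, KRT9 was the 1 member past 2-fold, and 2.36% of the 9947 genes were past 2-fold in that direction. In spinous cells with at least 5000 UMIs, where the shallow cells of CT-LCG play no part, the ratios were 2.53-fold (2.39 to 2.69) for KRT9, 2.43-fold (1.91 to 3.11) for KRT3 and 1.30-fold (1.25 to 1.34) for KRT4. The deep cluster 6, a larger part of the spinous cells in FT-LCG, is not set aside by this limit. In FT-LCG it had KRT9 at 0.250 and KRT4 at 0.507, against 0.899 and 4.51 in cluster 4. Cluster 4 itself had similar shares of these deep cells, 44.2% (CT-LCG) and 42.9% (FT-LCG). The part of cluster 6 in the ratios was not tested. The higher CT-LCG level was not particular to suprabasal cells. In basal cells the ratios were 4.07-fold (3.39 to 4.87) for KRT9, 5.29-fold (1.61 to 15.6) for KRT3 and 5.19-fold (3.81 to 7) for KRT4. Basal KRT3 and KRT4 were not above background. In transitional cells the ratios were 6.26-fold (5.03 to 7.8) for KRT9, 2.998-fold (1.18 to 7.40) for KRT3 and 3.69-fold (2.74 to 4.98) for KRT4. In CT-LCG, 1 cell held 48 of the 90 transitional KRT4 UMIs and 1 cell held 28 of the 69 basal ones. The KRT4 ratios of these layers therefore rested in large part on single cells.

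Within clusters 0, 3, 4 and 5 KRT9 and KRT4 were also higher in CT-LCG, by varying amounts. KRT9 was 5.87-fold (5.27 to 6.56) higher in CT-LCG in cluster 3, 7.01-fold (5.82 to 8.46) in cluster 5 and 1.87-fold (1.73 to 2.02) in cluster 4. KRT4 was 1.36-fold (1.31 to 1.41) higher in cluster 4. Clusters 3 and 5 held the layers in different shares in the 2 libraries. In cluster 3, 61 of 322 CT-LCG cells and 587 of 1098 FT-LCG cells were basal. In cluster 5, 53 of 312 and 526 of 806 were. The part of this in the ratios of these clusters was not tested. In the non-epithelial clusters, KRT9 was also higher in CT-LCG, with 0.158 against 0.0229, and KRT4 with 0.109 against 0.0286, and the ratios of all 3 genes with free RNA subtracted are given among the other settings. With 1 goat per fibre, an effect of fibre type, goat or preparation cannot be told apart.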

How the data were processed

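The authors dissociated the skin at 37 °C, made libraries with a 10x Chromium 3′ V3 kit and deposited UMI counts per gene and barcode. The file header names Cell Ranger 3.0.2. Of the genome build, nothing for goat is given in the sources used here. The deposited list of cells is what remained after the authors' filters on genes per cell and mitochondrial share. It holds 13051 of 17299 barcodes, and no other filter on cells was applied. No doublet caller was run, and the 5% of cells with the highest doublet scores (172 and 480) were left out as an alternative. All features were used for totals. Clusters were made from 2000 variable genes without the 3 keratins, 10 principal components, Harmony over the library and Leiden at resolution 0.7 (Python 3.11.15, numpy 2.4.6, scikit-learn 1.9.0, igraph 0.11.9, leidenalg 0.10.2), and were named from marker lists. Scripts were tested on simulated data. The genes named beside the 3 keratins were the 5 most correlated over clusters and the 10 highest and lowest per library and set of cells. The keratins and the lists were chosen with earlier results of these data known, and the limits for high cells and those gene lists after their values were seen. With 1 library per fibre type no test between fibre types was possible. The layer ratios, taken within each of 2 goats, were not tested because suprabasal levels chose the genes. Intervals were exact Poisson, Clopper-Pearson or conditional binomial (scipy 1.17.1).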

Additional observations from a re-analysis of the deposited data

Results flagged for a closer look

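The 4248 barcodes outside the list of kept cells, with a median of 695 UMIs, also held these keratins. With both libraries pooled, KRT4 had a level of 1.74 (1.60 to 1.90) UMIs per 10000, KRT9 0.645 (0.557 to 0.743) and KRT3 0.0336 (0.0161 to 0.0617). For KRT4 this was above the basal (0.180 and 0.0347) and non-epithelial (0.109 and 0.0286) levels of CT-LCG and FT-LCG. For KRT9 it was also above the basal (0.457 and 0.112) and non-epithelial (0.158 and 0.0229) levels. The FT-LCG spinous levels of KRT9, 0.692 (0.661 to 0.723), and KRT3, 0.0442 (0.0367 to 0.0528), did not stand above these barcodes. Those of CT-LCG did, with 1.66 (1.60 to 1.72) and 0.102 (0.0877 to 0.117). The source of this RNA was not tested. KRT4 in granular against spinous cells went opposite ways, with a log2 ratio of 1.67 in CT-LCG and -3.30 in FT-LCG. That difference was not tested, and without the 2 CT-LCG cells of highest KRT4 the CT-LCG ratio was -3.08.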

How the results depend on the processing

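No paired analysis was possible because the results come from no test. The layer ratios are the mean of ratios within each goat, and 2 goats are too few for an exact test to pass a threshold. Of 97 alternative values, single libraries aside, 75 stayed within a spread and 22 did not. The spread was 1 standard deviation of the 2 libraries on either side of the main value, which is wider than their range. For the ratio of the libraries it was the counting interval. For KRT4 in granular cells that spread includes both signs, so staying within it says little. Ratios are log2. FT-LCG over CT-LCG in suprabasal cells was -1.30 for KRT3, -0.52 for KRT4 and -1.26 for KRT9. As a mean over cells these became -0.776, -0.397 and -1.152, with cells thinned to 1000 UMIs KRT4 was -0.399 and KRT9 -0.908, with 10% free RNA subtracted they were -1.25, -0.465 and -1.21, and named epithelial clusters alone gave -0.594 for KRT4. Suprabasal over basal was 3.24 for KRT3, 5.25 for KRT4 and 2.23 for KRT9, with 4.32 for KRT3 after free RNA was subtracted, and 3.797 (thinned) and 3.86 (mean over cells) for KRT4. Each library alone gave 2.69 to 3.79 for KRT3, 4.32 to 6.18 for KRT4 and 1.85 to 2.61 for KRT9. Granular over spinous was -1.25 for KRT3, -0.82 for KRT4 and -0.49 for KRT9, and -2.26 for KRT9 with the layer limits doubled. Each library alone gave -2.07 to -0.43, -3.30 to 1.67 (CT-LCG, the change of sign among all values) and -0.83 to -0.15, and KRT4 without the 2 CT-LCG cells, chosen after seeing the data, was -3.19. The share of UMIs in the top 3 clusters was 77.2% for KRT3 (70.1% without Harmony), 82.5% for KRT4 (86.9% without Harmony, 85.3% with all keratins left out) and 73.7% for KRT9 (57.1% without Harmony, 68.6% at resolution 1.0). Each library alone gave 72.3 to 82.2%, 80.9 to 84.1% and 71.5 to 76.0%. Alternatives for high cells were all chosen after seeing the data. KRT9-high cells were 2.06% of KRT4-high cells, and 6.76% with limits halved, 0% with limits doubled, 1.68% from 10000 UMIs and 1.05% thinned to 5000 UMIs (each library alone 1.92 to 2.20%). KRT4-high cells were 25.7% of cells with a KRT3 UMI, and 30% and 13.5% with limits halved and doubled (each library alone 23.8 to 27.7%). Granular over spinous gave no value, for lack of UMIs, for KRT3 with limits doubled, at least 1000 genes per cell, thinning or the highest doublet scores left out, nor for KRT9 with thinning. Suprabasal over basal gave none for KRT3 with thinning or for KRT4 with free RNA subtracted, which left no basal level above 0 in at least 1 library, so the KRT4 ratio has no value corrected for background. The causes were not tested. KRT3, with 213 and 155 UMIs, is limited by depth.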
